A study of Danio rerio with 6 samples.

Results

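Transcriptional targets of the tumour suppressor p53 were examined in zebrafish embryos that lack zygotic Spt5. They are *mdm2*, *pmaip1*, *phlda3*, *rps27l* and *ccng1*, and they were taken from the array by gene symbol. These 5 genes, of 8793 with a symbol, are read by 6 of the 15502 probe sets tested. The members were chosen with their values on these arrays known. The levels of the 5 genes, their spread among arrays and their differences between the groups are therefore given as a description, without a test. Total RNA came from whole embryos at 24 hpf (hours post fertilization), taken in equal numbers from WT siblings and *fogsk8* mutants. Each group has 3 samples, and each sample was hybridised to 1 Affymetrix Zebrafish Genome Array. The mutation disrupts *foggy/spt5* (*supt5h*), the gene of an elongation factor that can both slow and stimulate RNA polymerase II. The study worked with the AB strain, and *fogsk8* embryos still hold some maternal Spt5 protein at this stage. No embryo received any other treatment that the labels name. The sources used here give neither the number of embryos in a sample nor the share of heterozygotes among the WT siblings. Values are the authors' GC-RMA values on the log2 scale, in which a difference of 1 is 2-fold.

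p53 is a transcription factor that stays scarce in unstressed cells, because the ubiquitin ligase Mdm2 binds it and sends it to the proteasome. DNA damage, ribosome defects and other kinds of stress weaken that hold, and p53 then switches on genes that stop the cell cycle, repair DNA or start cell death. *mdm2* is itself one of these genes, which closes a negative feedback loop. In zebrafish embryos, as in mouse embryos, loss of Mdm2 is lethal through p53. The p53 gene itself was not analysed here.

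The transcript of the mutated gene checked the labels. The probe set of *supt5h* read 7.42, 7.56 and 6.80 in WT siblings and 3.66, 3.70 and 3.81 in *fogsk8* embryos (adjusted p = 0.000994 by limma). Array medians lay between 5.08 and 5.15. Replicates 1 and 2 of a group correlated at 0.996 to 0.997 over all probe sets, and replicate 3 with the other replicates of its group at 0.991 to 0.992, so replicate 3 stood somewhat apart in both groups. Of 18 measured markers of embryonic tissues, 9 fell and 0 rose in *fogsk8* embryos, among them those of the heart (*myl7*), fast muscle (*tnnt3b*), lens (*crybb1*) and myeloid cells (*lyz*). The other muscle genes of the list, *myod1* and *myog*, did not fall with *tnnt3b*. They differed by 0.44 and 0.53 (adjusted p = 0.409 and 0.383), and neither passed the test. The bright epidermal and neural markers *krt4* and *sox2* differed by 0.0024 and −0.33 (adjusted p = 0.989 and 0.0991). The neuronal marker *elavl3* and the eye and brain factor *pax6a*, chosen after their values were seen, were lower by less than 2-fold (−0.87 and −0.95, adjusted p = 0.00325 and 0.00607). In WT siblings 17 of the 18 markers had a mean over 4, and the heart factor *nkx2.5* lay lowest, at 2.96. *nkx2.5* differed by 0.14 (adjusted p = 0.312) and did not fall, while the heart genes *myl7* and *cmlc1* did (−4.59 and −4.46). The mean log2 value over the 18 markers was 8.29 to 8.62 on the WT arrays and 6.39 to 6.69 on the mutant arrays. Whole embryos were measured, so fewer cells of a type and less RNA per cell cannot be told apart, and the part of tissue composition in the values below was not tested.

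All 5 p53 targets had a higher mean in *fogsk8* embryos than in WT siblings. For each gene the probe set with the highest mean over all arrays was used, mutant arrays included. The differences ran from 0.33 to 1.59 on the log2 scale, with a median of 1.28, where the median difference over all genes was 0.057. For *pmaip1*, which gave the 1.59, the mutant arrays decided the choice. Its probe set used had the lower WT mean (2.84 against 2.98) and the higher mutant mean (4.43 against 3.14). With all probe sets of a gene averaged the median was 0.88. In 4 of the 5 genes every mutant array lay above every WT array. The same held for 25.3% of all genes, and since the genes were chosen on these arrays nothing is read from the count. On the probe sets used and with all 6 arrays, the means of *pmaip1*, *phlda3* and *rps27l* differed by more than 2-fold. Those of *mdm2* and *ccng1* differed by less than 1.4-fold. Without mutant replicate 3 *phlda3* was at 1.87-fold and *rps27l* at 2.18-fold, and *pmaip1* was at 1.12-fold on its other probe set with all arrays.

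**Figure D1:**
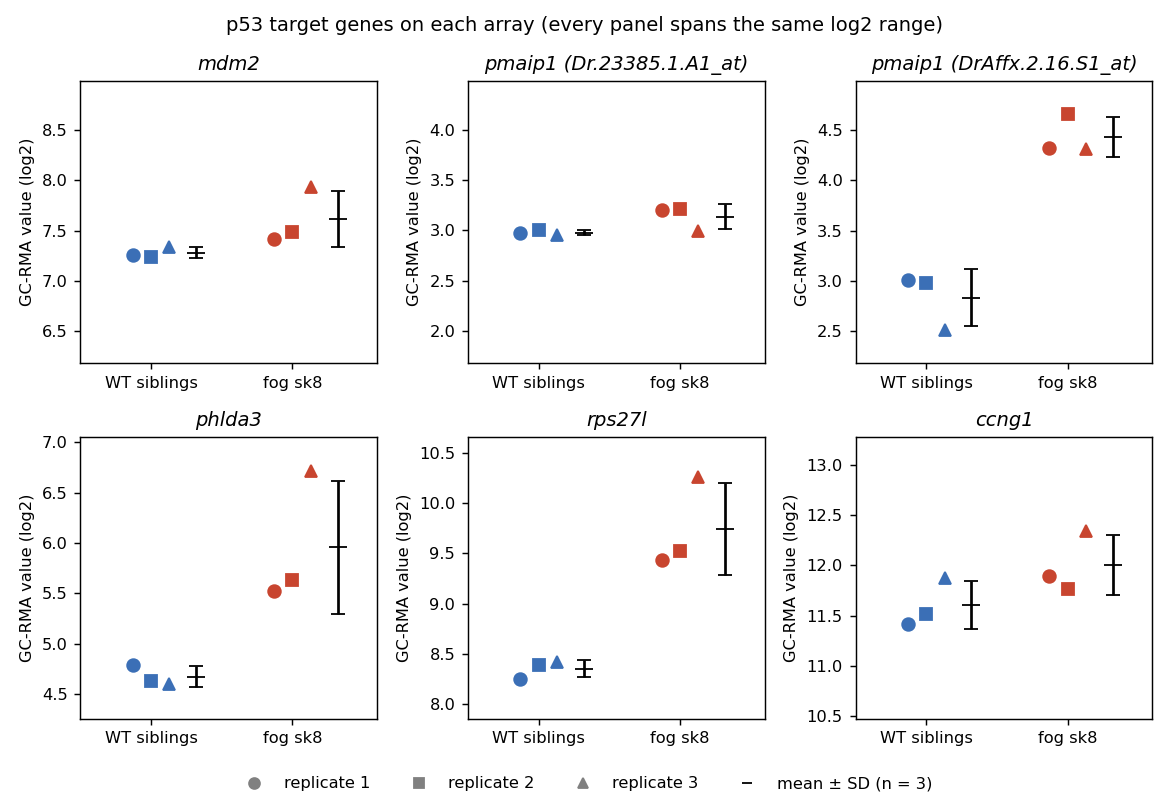
GC-RMA values (log2, y axis) of the 6 probe sets of the p53 targets on each array of WT siblings (blue) and fogsk8 embryos (red), with marker shapes for replicates and bars for the mean ± SD (n = 3). Fogsk8 replicate 3 (red triangle) is the highest array for mdm2, phlda3, rps27l and ccng1, at 7.93, 6.72, 10.26 and 12.34, but not for pmaip1.

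*mdm2*, the feedback inhibitor of p53, read 7.26, 7.24 and 7.34 on the WT arrays (replicates 1, 2 and 3) and 7.42, 7.48 and 7.93 on the *fogsk8* arrays. The groups did not overlap, but the lowest mutant array lay only 0.081 above the highest WT array, and mutant replicate 3 was the highest array. The mean was 7.28 ± 0.055 in WT and 7.61 ± 0.28 in *fogsk8* embryos (SD, n = 3), a difference of 0.33 (SE 0.14) or 1.26-fold. Without mutant replicate 3 the difference was 0.17, or 1.13-fold.

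*pmaip1* encodes Noxa, a BH3-only protein that in mammals promotes cell death by binding the survival factor Mcl1. It is read by a pair of probe sets, which differed in what they showed. On the one with the higher mean over the 6 arrays the WT samples read 3.01, 2.98 and 2.51 and the *fogsk8* samples 4.32, 4.66 and 4.31. The lowest mutant array was 1.30 above the highest WT array, the widest separation of the 6 probe sets. Means were 2.84 ± 0.28 and 4.43 ± 0.20 (SD, n = 3), and the difference of 1.59 (SE 0.17), or 3.02-fold, was the largest of the 5 genes. Here 21.6% of all probe sets had a lower WT mean, so the WT value lies near the lower end of the scale, where the size of a fold change is uncertain.

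On the other probe set of *pmaip1* WT read 2.97, 3.01 and 2.95 and *fogsk8* embryos 3.20, 3.21 and 2.99. These groups overlapped, and the difference was 0.16 (SE 0.077). Its WT mean was above that of only 24.2% of all probe sets, and its values in both groups lay near the lower end of the scale. The place of either probe set in the transcript was not examined. The average of both probe sets gave a difference of 0.88 for *pmaip1*, and the median of the 5 genes then became the same value, 0.88 in place of 1.28.

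*phlda3* encodes a small protein with a pleckstrin homology domain, which in mammals competes with the kinase Akt for membrane lipids and so restrains survival signals. The WT samples read 4.79, 4.63 and 4.60, and the *fogsk8* samples 5.52, 5.64 and 6.72. The groups lay 0.73 apart, and mutant replicate 3 was about as far above mutant replicates 1 and 2 as these were above WT. The means of 4.67 ± 0.10 and 5.96 ± 0.66 (SD, n = 3) gave a difference of 1.28 (SE 0.32) or 2.43-fold. Without mutant replicate 3 it was 0.90, or 1.87-fold. The SD in the mutant group was the widest of the 5 genes, and 1.16% of all genes had one at least as wide.

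*rps27l* encodes a close relative of the ribosomal protein S27 that is induced by p53 in human cells. It read 8.26, 8.40 and 8.42 in WT and 9.44, 9.53 and 10.26 in *fogsk8* embryos. Every mutant array was more than 1 log2 unit above every WT array, with a gap of 1.02. The means were 8.36 ± 0.088 and 9.74 ± 0.45 (SD, n = 3), a difference of 1.39 (SE 0.23) or 2.61-fold, and the difference without mutant replicate 3 was still 1.13 (2.18-fold). The S27 genes on the array gave other values. *rps27.1* and *rps27.2*, the paralogs of *rps27l* in the core ribosome, had differences of 0.081 (SE 0.096, adjusted p = 0.599) and 0.17 (SE 0.11, adjusted p = 0.355), and neither passed the test.

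*ccng1* encodes cyclin G1, which in mammals guides a phosphatase to Mdm2 and so helps to bring p53 down again after stress. Its WT mean was above that of 98.4% of all probe sets. It read 11.42, 11.52 and 11.87 in WT and 11.90, 11.77 and 12.34 in *fogsk8* embryos. The groups overlapped, since mutant replicate 2 lay 0.10 below WT replicate 3. Means of 11.60 ± 0.24 and 12.002 ± 0.30 (SD, n = 3) gave a difference of 0.40 (SE 0.19) or 1.32-fold, and 0.23 without mutant replicate 3. In *ccng1* replicate 3 was the highest array in both groups. A block for the replicate number leaves the difference as it is, and the standard error was then 0.081.

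The spread among the mutant arrays, which the difference of the means does not describe, was not alike in the 5 genes. The mutant SD was 0.66 for *phlda3*, 0.45 for *rps27l*, 0.30 for *ccng1*, 0.28 for *mdm2* and 0.20 for *pmaip1*. That of *pmaip1* was below its WT SD of 0.28. The genes were chosen with these arrays known, and mutant replicate 3 is part of each mutant mean. A gene high on that array was thus more likely to be chosen, and nothing is read from the shares of all genes below. A deviation here is the value on replicate 3 minus the mean of replicates 1 and 2. On mutant replicate 3, *phlda3* was 1.14 above the mean of mutant replicates 1 and 2, *rps27l* 0.78, *ccng1* 0.50 and *mdm2* 0.48. Among all genes, 0.671% had a deviation at least as large as that of *phlda3*, 2.23% as that of *rps27l*, 5.87% as that of *ccng1* and 6.43% as that of *mdm2*. *pmaip1* was the exception, at −0.18. In WT siblings replicate 3 deviated from the other replicates by 0.092 for *mdm2* and *rps27l*, by −0.11 for *phlda3*, by 0.41 for *ccng1* and by −0.48 for *pmaip1*. High values on replicate 3 thus appeared in both groups for *ccng1*, and in the mutant group but hardly in WT for *phlda3*, *rps27l* and *mdm2*. One array carries each of these deviations, so they have no replicate. Of the 18 tissue markers, 3 were also more than 0.5 higher on mutant replicate 3, namely the muscle gene *tnnt3b* (2.96) and the globin genes *hbae3* (0.90) and *hbbe3* (0.67), and 7 on WT replicate 3, these 3 among them. The mean over the 18 markers was highest on replicate 3 in both groups, at 6.69 and 8.62, and the part of tissue composition in the replicate 3 values was not tested.

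**Figure D2:**
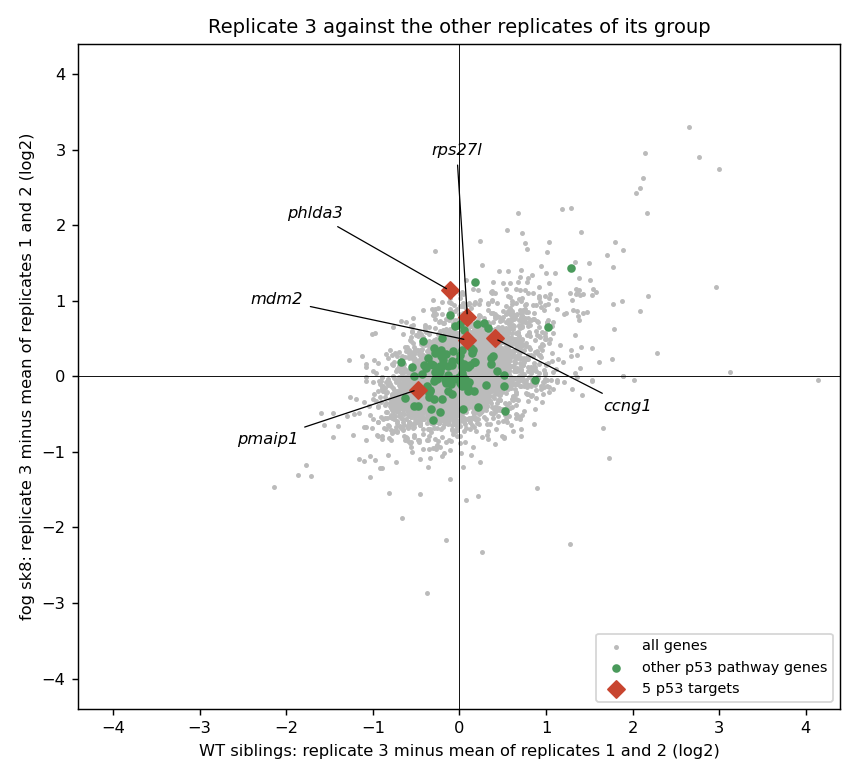
Deviation of replicate 3 from the mean of replicates 1 and 2 (log2) in WT siblings (x axis) and in fogsk8 embryos (y axis), for all 8793 genes (grey), 102 other p53 pathway genes (green) and the 5 p53 targets (red diamonds). Phlda3, rps27l and mdm2 lie high on the y axis at 1.14, 0.78 and 0.48 with x values between −0.11 and 0.092, ccng1 is high on both axes, and pmaip1 is below 0 on both.

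Other pathway genes were high on the same array. The 102 other p53 pathway genes were listed by role from general knowledge, though with earlier results of these data known. The shares below are therefore a description. Of the 102 genes, 12 lay more than 0.5 above the mean of mutant replicates 1 and 2 on mutant replicate 3. This is 11.8%, against 5.95% of all genes. The corresponding count for WT replicate 3 was 6, or 5.88%, against 6.04% of all genes. Among the 12 are 3 genes singled out here after their values were seen, *bbc3*, *gadd45aa* and *sesn3*. *bbc3*, which encodes the BH3-only protein Puma, read 2.98, 3.07 and 4.28 on the mutant arrays against 2.65, 2.56 and 2.79 in WT. *gadd45aa*, a growth arrest gene, read 4.22, 4.35 and 5.10 against 3.71, 3.73 and 3.61, and *sesn3*, a sestrin of the stress response, read 8.10, 8.09 and 8.76 against 7.55, 7.71 and 7.58. In each of these genes mutant replicate 3 was the highest array and every mutant array lay above every WT array. The latter held for 25.3% of all genes and for 29 of the 102. None of the 3 passed the test between the groups (adjusted p = 0.0584 to 0.204 by limma). Without mutant replicate 3, *gadd45aa* was higher by 0.60 (adjusted p = 0.0191) and *sesn3* by 0.48 (adjusted p = 0.0242), both under 2-fold. For *bbc3* the difference was then 0.36 (adjusted p = 0.0704). The 3 genes were picked with their high value on that array known. Leaving that array out narrows their spread, so nothing is read from these p-values. The antioxidant enzyme gene *sod2*, also chosen after its values were seen, was high on replicate 3 of both groups, by 1.44 in *fogsk8* embryos and 1.29 in WT. Most of the other genes among the 12 did not share the pattern. *hif1an*, *casp8*, *cat* and *sod2* had lower mutant means (−0.30, −0.080, −0.78 and −0.081). In *bcl2l1*, *tnfrsf1a* and *foxo3b* the groups overlapped, while in *gpx1b* and *bnip3lb* they did not.

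The genes whose values over the 6 arrays were most like those of each target were found by the root mean square difference between profiles, each centred on its own mean, among 8792 genes. Nearest to *phlda3* were *lyrm1* (0.10 log2 units) and *notum1b* (0.17), and nearest to *rps27l* were *phf23a* (0.12) and *hoxc5a* (0.13), all with their highest value on mutant replicate 3. *badb*, which encodes a BH3-only protein of the Bad type, lay nearest to *pmaip1* (0.15), followed by *gadd45bb* (0.16). For *mdm2* they were *trip10b* (0.026) and *pja2* (0.030), and for *ccng1* *wdr13* (0.056) and *ciarta* (0.066). None of the 5 targets was among the 2 nearest genes of another. The profiles were not scaled, so targets with differences of unlike size lie apart by this measure whatever the shape of their profiles.

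**Figure D3:**
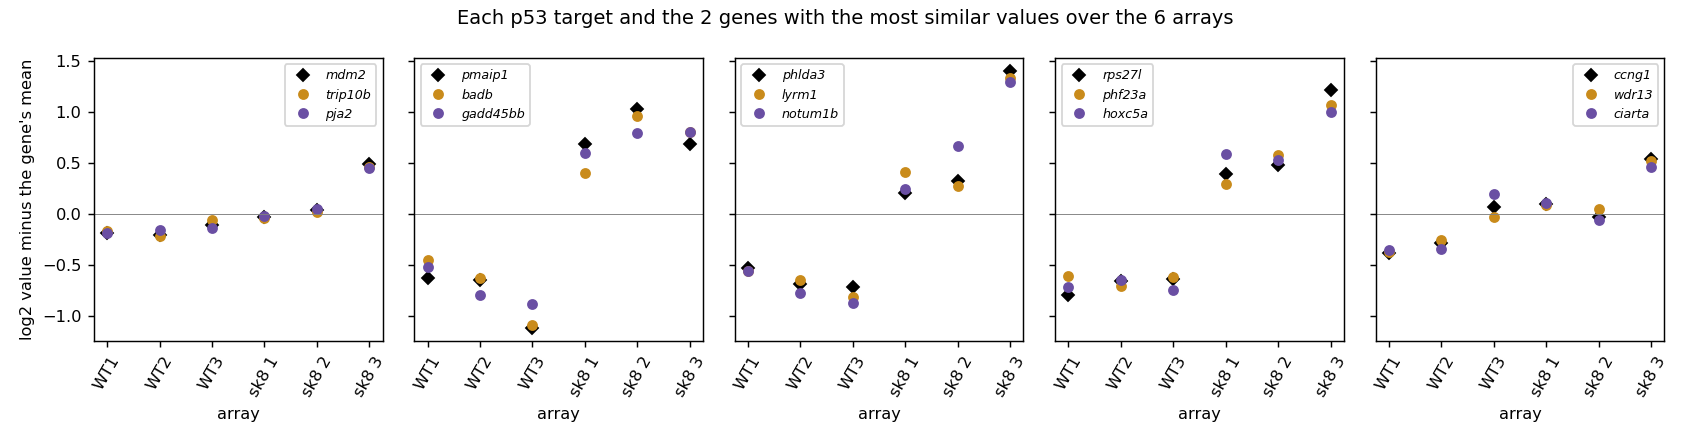
Log2 value minus the gene's own mean over the 6 arrays (y axis) on each WT sibling (WT) and fogsk8 (sk8) array (x axis), for each p53 target (black diamonds) and the 2 genes most like it (circles). The circles follow the diamonds within a root mean square of 0.026 to 0.17 log2 units, and pmaip1 with badb and gadd45bb lacks the high value on sk8 replicate 3 that the other targets share.

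The other genes of the pathway were tested with limma, with p-values adjusted over all 15502 probe sets. A gene was taken to rise or fall where its adjusted p was under 0.05 and its mean differed 2-fold or more. Of the 102 genes, 6 rose and 1 fell, where 0.898% of all genes rose and 3.2% fell. The lists were drawn up with earlier results of these data known, and the study had reported *gadd45b* and *ndrg1* as changed in these samples. The shares in this paragraph are therefore not an unbiased comparison. At an adjusted p under 0.05 and any fold, 18 were higher and 8 lower, or 17.6% and 7.84%, where 10.8% of all genes were higher and 9.14% lower. Their median difference was 0.083, against 0.057 over all genes. The 18 and 8 became 9 to 14 and 5 to 8 with 1 array left out (9 without *fogsk8* replicate 2, 10 without WT replicate 1 and 11 without WT replicate 2), and 15 and 8 without replicate 3 of both groups.

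**Figure D4:**
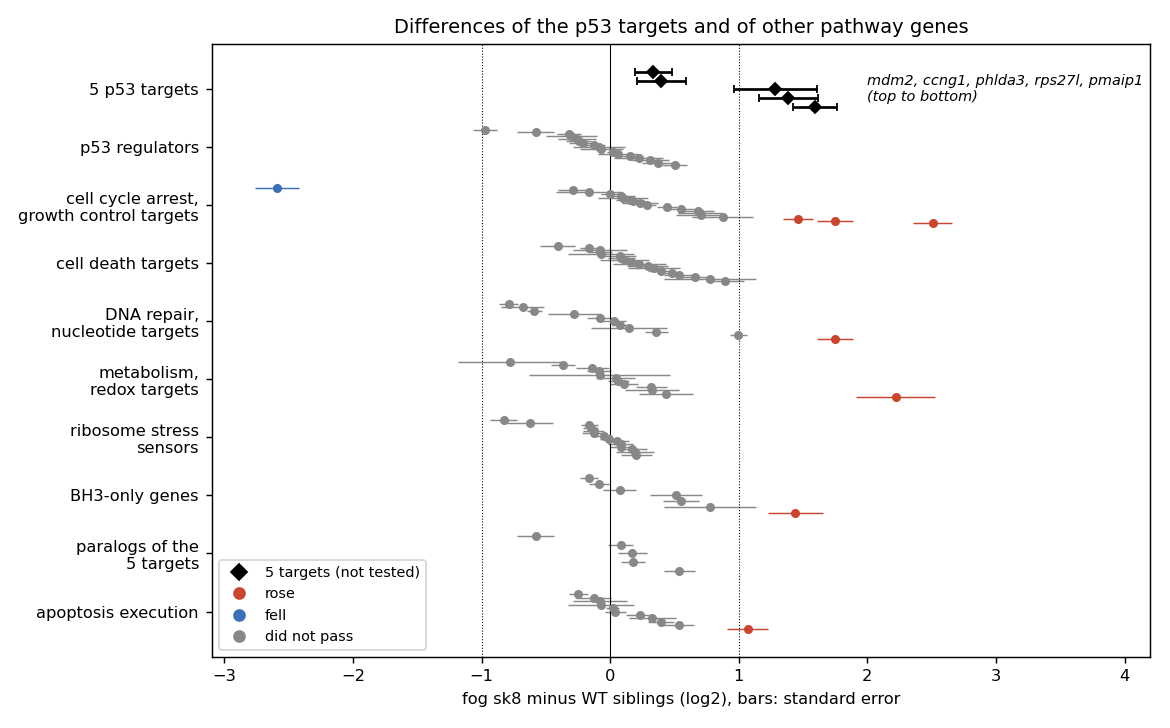
Difference of fogsk8 embryos minus WT siblings (log2, x axis; bars are standard errors) for the 5 p53 targets (black diamonds, not tested) and for each measured gene of 9 lists of other pathway genes (circles; gadd45ga and some others stand in more than 1 list). Dotted lines mark 2-fold; 6 different genes rose (red), ndrg1a fell (blue), and pmaip1, rps27l and phlda3 lie beyond the right-hand dotted line.

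Among 17 measured regulators of p53, 0 rose and 0 fell, with a median difference of −0.087. At an adjusted p under 0.05 and any fold, 1 was higher and 2 were lower. The higher gene was *rchy1* (0.50, SE 0.10, adjusted p = 0.0255), named after its values were seen. Without *fogsk8* replicate 3 the adjusted p of *rchy1* was 0.0718. The lower genes were *mdm4* and *tp63*. *mdm4*, the partner of Mdm2 that masks the activation domain of p53, read 7.98, 7.94 and 7.67 in WT and 7.25, 7.53 and 7.08 in *fogsk8* embryos. The groups did not overlap and *mdm4* was lower by 0.58 on the log2 scale (SE 0.14, adjusted p = 0.0458), in the opposite direction to *mdm2*. That adjusted p was 0.100 to 0.128 without WT replicate 1 or 2 or *fogsk8* replicate 1 or 3, so the call at any fold rests on each of these arrays. *tp63*, a p53 relative that builds the epidermis, was lower by 0.97 (SE 0.093, adjusted p = 0.00347), just short of 2-fold, and its other probe set differed by −0.60. It was chosen after its values were seen, and passed 2-fold without WT replicate 1 (−1.03) or *fogsk8* replicate 3 (−1.04). The brightest of the other regulators, the deubiquitinase gene *usp7* and the chromatin reader gene *ing4*, had differences of −0.26 (SE 0.15, adjusted p = 0.29) and −0.069 (SE 0.17, adjusted p = 0.795). Their other probe sets differed by −0.47 and 0.053.

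In the list of cell cycle arrest and growth control, 3 of 19 genes rose and 1 fell, and the median was 0.28. At an adjusted p under 0.05 and any fold, 7 were higher and 1 lower, where 10.8% of all genes were higher and 9.14% lower. The 7 hold *btg1* (0.44, adjusted p = 0.0195) and *tob1b* (0.69, adjusted p = 0.02), named after their values were seen. Without *fogsk8* replicate 3 the adjusted p was 0.0521 for *btg1* and 0.0613 for *tob1b*. The 3 that rose were *gadd45ba* (2.51, SE 0.15), *gadd45ga* (1.75, SE 0.14) and *gadd45bb* (1.46, SE 0.12), with adjusted p = 0.00117 to 0.00245, whose proteins act in stress signalling and growth arrest. The study singled out *gadd45b* among the genes of these samples, so the count of this list is not independent evidence of its direction. The study also names NF-kappaB and TGF-beta as regulators of *gadd45b* in cultured mammalian cells, and whether p53 acted on these 3 genes was not tested. Neither *gadd45a* gene rose. *gadd45aa* differed by 0.88 (SE 0.24, adjusted p = 0.0584), and *gadd45ab* was higher by 0.55 (SE 0.097, adjusted p = 0.0184), under 2-fold. The gene that fell was *ndrg1a* (−2.59, SE 0.17, adjusted p = 0.00148), which is induced by differentiation and stress and can be a p53 target in human cells. *btg2*, an antiproliferative gene and a p53 target in mammals, was higher by 0.70 (SE 0.17, adjusted p = 0.0447) on its brighter probe set and differed by 0.25 on its other one. Its adjusted p was 0.0813 to 0.115 in 5 of the 6 fits with 1 array left out, all but that without *fogsk8* replicate 3. The other cyclin G gene, *ccng2*, named as the paralog of *ccng1*, had a difference of 0.18 (SE 0.095, adjusted p = 0.27), and the phosphatase gene *ptp4a1* 0.28 (SE 0.076, adjusted p = 0.0573).

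Of 18 measured cell death targets, 0 rose and 0 fell, and 4 were higher at an adjusted p under 0.05 by less than 2-fold. *baxa*, which encodes the pore-forming protein Bax, read 7.55, 7.63 and 7.31 in WT and 7.96, 8.16 and 8.37 in *fogsk8* embryos, a difference of 0.66 (SE 0.14, adjusted p = 0.0276). The groups did not overlap, but the adjusted p was 0.0547 to 0.0796 without any 1 of the WT arrays or without *fogsk8* replicate 2 or 3. *tp53inp1*, a nuclear cofactor of p53, was the largest of the 4, at 7.01, 7.12 and 6.77 in WT and 7.65, 7.82 and 8.11 in *fogsk8* embryos (0.89, SE 0.15, adjusted p = 0.016, and 0.0506 without WT replicate 1). Without *fogsk8* replicate 1 the difference of *tp53inp1* was 1.001 (adjusted p = 0.0275), so that 1 of the 18 genes rose. For the oxidoreductase gene *aifm2* the difference was 0.48 (SE 0.072, adjusted p = 0.0114). *phlda2*, the paralog of *phlda3*, was 0.54 higher (SE 0.12, adjusted p = 0.0349). The call of *phlda2* was lost without WT replicate 1 or any 1 of the *fogsk8* arrays (adjusted p = 0.0596 to 0.104). *tp53inp1*, *aifm2* and *phlda2* were singled out after their values were seen. *bbc3* had a difference of 0.78 (SE 0.36, adjusted p = 0.204), which was 0.36 without *fogsk8* replicate 3 (adjusted p = 0.0704). That of *perp*, a membrane protein gene of epithelia and a p53 target in mouse, was 0.29 (SE 0.16, adjusted p = 0.276), and 0.83 on its other probe set. In all, 6 of the 18 genes had a mean under 4, near the lower end of the scale.

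Of 7 measured BH3-only genes, the family to which *pmaip1* belongs, 4 had a mean under 4, near the lower end of the scale. *badb* was the gene that rose among the 7, and 0 fell. It read 5.83, 5.65 and 5.19 in WT and 6.68, 7.23 and 7.08 in *fogsk8* embryos (1.44, SE 0.21, adjusted p = 0.0116), and its other probe set differed by 0.95. *bnip3lb*, of the Bnip3 type, had a difference of 0.51 (SE 0.20, adjusted p = 0.149) and of 0.71 on its other probe set. Without *fogsk8* replicate 1 it was higher by 0.73 (adjusted p = 0.0331), at less than 2-fold. For *bida*, which links death receptors to mitochondria, the difference was 0.072 (SE 0.13, adjusted p = 0.718). Of 11 measured genes of the apoptosis execution list, which also holds inhibitors of apoptosis such as *birc5a*, 1 rose and 0 fell. This was *diabloa*, which encodes an antagonist of the inhibitors of apoptosis (1.07, SE 0.16, adjusted p = 0.0122). Its change was under 2-fold without WT replicate 1 (0.96) or *fogsk8* replicate 1 (0.92). *birc5a*, which encodes survivin, was higher by 0.53 (SE 0.12, adjusted p = 0.0358), and its adjusted p was 0.0524 in the fit with a replicate block and 0.0541 to 0.103 with any 1 array left out. The cytochrome c gene *cycsb* had a difference of 0.040 (SE 0.080, adjusted p = 0.753).

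Of 11 genes of DNA repair and nucleotide supply, 1 rose, *gadd45ga*, and 0 fell. The histone gene *h2ax*, whose product is phosphorylated at DNA breaks, came closest to 2-fold, at 7.59, 7.61 and 7.64 in WT and 8.72, 8.54 and 8.57 in *fogsk8* embryos (0.997, SE 0.068, adjusted p = 0.0016). It was singled out after its values were seen, and its difference was 2-fold or more with arrays centred on their medians (1.04), without WT replicate 3 (1.01) and without *fogsk8* replicate 2 (1.03) or 3 (1.02). Of the 11 genes, 3 were higher and 3 lower at an adjusted p under 0.05 and any fold. Besides *gadd45ga* and *h2ax*, the higher genes held *ddb2* (0.36, SE 0.088, adjusted p = 0.0456). The lower genes were *pcna*, *rpa1* and *lig1* (−0.68, SE 0.17, adjusted p = 0.0465). Without *fogsk8* replicate 3 the adjusted p of *ddb2* was 0.0965. That of *lig1* was 0.0833 to 0.128 without WT replicate 1 or 2 or *fogsk8* replicate 1 or 3. *ddb2* and *lig1* were named after their values were seen. *pcna*, the sliding clamp, had a difference of −0.59 (SE 0.059, adjusted p = 0.00399). *rpa1*, which coats single-stranded DNA, had one of −0.79 (SE 0.072, adjusted p = 0.00312). Both were lower also at an adjusted p under 0.05 with any 1 array left out.

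Of 12 genes of metabolism and redox control, 1 rose and 0 fell. The glutathione peroxidase gene *gpx1b* read 4.26, 3.47 and 4.15 in WT and 5.74, 6.15 and 6.65 in *fogsk8* embryos (2.22, SE 0.30, adjusted p = 0.00925). Its paralog *gpx1a* had a difference of 0.32 (SE 0.12, adjusted p = 0.13, but 0.0438 in the fit with a replicate block), and the thioredoxin reductase gene *txnrd3* was lower by 0.37 (SE 0.092, adjusted p = 0.0478). The adjusted p of *txnrd3* was 0.0648 to 0.129 without any 1 of the WT arrays or without *fogsk8* replicate 1 or 2. In the list of ribosome stress sensors, which holds the ribosomal proteins that can bind Mdm2, 0 of 14 genes rose and 0 fell. The differences of these 14 genes ran from −0.83, for the nucleophosmin gene *npm1b* (adjusted p = 0.00731, less than 2-fold, named for its rank), to 0.20. Among the brightest, *rps27a* had a difference of 0.087 (SE 0.084, adjusted p = 0.524). That of *rpl23* was −0.16 (SE 0.067, adjusted p = 0.167). Of the 5 paralogs of the p53 targets that were measured, *mdm4*, *phlda2*, *ccng2*, *rps27.1* and *rps27.2*, 0 rose and 0 fell.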

How the data were processed

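Deposited were GC-RMA values in log2 units from 6 arrays, 3 per group, computed by the authors (version not given in the sources used here). Groups and replicate numbers come from the sample labels. After removal of 115 control features from 15617, the remaining 15502 entered a limma 3.58.1 fit (R 4.3.3) with group as the only term, moderated by eBayes and adjusted by Benjamini-Hochberg. A platform table gave 1 symbol for 10795 probe sets, several for 135 (not named) and none for 4572. Entrez IDs of 10711 were found in a RefSeq table (GRCz12tu, names only), which updated 1 symbol. For each of the 8793 genes the probe set brightest on average over the arrays of both groups stood for the gene. The number of arrays limits the precision, and the labels call the replicates biological without saying what sets them apart.

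The 5 genes and the 9 lists of other pathway genes were chosen with earlier results of these data known. Of 168 list symbols, 66 were not matched and are not analysed here. Named are, in each list, up to 4 genes that passed the test with the largest change and the 2 brightest others, besides *mdm4*, *bbc3* and *baxa*, and the 2 nearest profiles of each target. All other genes named were chosen after their values were seen.

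Deviations from the group means correlated at 0.12, 0.29 and 0.39 between arrays of replicate number 1, 2 and 3, all over the bound of 0.1 set for pairing, though WT replicate 1 correlated more with *fogsk8* replicate 2 (0.18). The replicate number was therefore used as a block in an alternative fit. Others were the methods' t-test (Student's), no minimum fold, a mean-variance trend, median centring, quantile normalization, dim probe sets (mean under 4 in both groups) left out, and each array left out. The fit was first tested on simulated data. Figures were drawn with matplotlib 3.10.9 in Python 3.11.15.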

Additional observations from a re-analysis of the deposited data

How the results depend on the processing

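The differences of all 6 probe sets of the p53 targets kept their sign under the 10 alternatives tried for each. Those of *mdm2* and *ccng1* ran from 0.17 to 0.43 and from 0.23 to 0.53. In 4 of the 6 probe sets the groups did not overlap, so leaving out arrays could not change the sign. The replicate block leaves every difference as it is. The genes were chosen with these arrays known, and nothing is read from the kept signs. The median of the 5 genes, 1.28, moved by more than the replicate spread in some: it was 0.90 to 1.503 with 1 array left out, 0.87 without replicate 3 of both groups (added after the data were seen) and 0.88 with all probe sets of a gene averaged. Of the other pathway genes, 6 rose and 1 fell. With the replicate number as a block the count was again 6 and 1. At any fold the block lost *birc5a* and added *gpx1a*, *kat5a* and *bada* among the higher genes and *ncl* among the lower (adjusted p = 0.00993 to 0.0494), and it changed no other call of these genes. The count was also 6 and 1 with quantile normalization and with dim probe sets left out, while median centring gave 7 and 1 by adding *h2ax*. By the methods' t-test, 6 rose and 1 fell before adjustment and 3 and 1 after it, when *badb*, *diabloa* and *gpx1b* were lost. Without a minimum fold they were 18 and 8. With 1 array left out, 5 to 7 rose and 1 to 2 fell, the second being *tp63*. Without replicate 3 of both groups 5 rose, since *badb* (adjusted p = 0.0512) and *diabloa* (0.0616) were lost and *h2ax* was added. Over all probe sets, 116 rose and 445 fell. The adjusted t-test gave 64 and 254, no minimum fold 1376 and 1239, and 1 array left out 102 to 119 and 338 to 456. Small differences of genes that did not pass changed sign: *ing4* to 0.080 without *fogsk8* replicate 1 (−0.19 to 0.080 with 1 array left out), *bida* to −0.043 without *fogsk8* replicate 3 and −0.11 without replicate 3 of both groups, *rps27a* to −0.012 and *rps27.1* to −0.041 without replicate 3 of both groups, and *cycsb* to −0.0013 without WT replicate 2 and −0.00088 without *fogsk8* replicate 3 (−0.0013 to 0.10 with 1 array left out). Dim values, such as those of *pmaip1* and *bbc3* in WT, leave the size of a fold change uncertain.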
